A study of Mus musculus with 24 samples.

Results

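Interferon-gamma (IFN-gamma) was added to cells edited in one subunit of its receptor, and the IFN-gamma libraries of this Ifngr1-KO line were compared with its PBS libraries over both culture forms together. The comparison holds 12 of the 24 libraries of the series, 6 with IFN-gamma and 6 with PBS, chosen by genotype and treatment labels. The cells are ID8 p53-/-, a mouse ovarian cancer line that lacks Trp53, and all groups used here share that deletion. The Ifngr1-KO groups were adherent with IFN-gamma, ultra-low attachment (ULA) with IFN-gamma, adherent with PBS and ULA with PBS. The 12 libraries of sgNTC cells, which carry a non-targeting guide, have the same 4 groups and served for comparison. Each group has 3 libraries that are labelled biological replicates. IFN-gamma was used at 100 ng/ml for the last 24 h of a 48 h culture, and only the ULA cultures had their dead cells removed. Each genotype is 1 line, so the genotype and the line cannot be told apart. No source states that the replicates were grown on separate days, so the p-values measure the spread between these libraries, which may be in part technical. The pooled comparison asks whether any response to the cytokine remained, or arose without the receptor, once its gene was edited.

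IFN-gamma binds a receptor of the ligand-binding chain IFNGR1 and the signalling chain IFNGR2. The kinases JAK1 and JAK2 then start a cascade that acts on gamma-activated sites (GAS) in promoters such as that of Irf1. IRF1 acts through another element, the interferon-stimulated response element (ISRE), and the targets include immunoproteasome subunits, peptide transporters, MHC class I and the guanylate-binding and immunity-related GTPases.

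The 12 Ifngr1-KO libraries held 38185599 to 53261450 gene counts each. Mitochondrial genes took 1.96% to 3.87% of them. Part of the epithelial and mesothelial markers was present, with Krt8 at 250 to 914 CPM (counts scaled to the size of the library) and Wt1 at 125 to 382 CPM, along with Krt18, Krt19, Msln, Upk1b, Cdh2 and Vim. Krt7, Upk3b, Lrrn4, Muc16, Pax8 and Cdh1 were at 1.81 CPM or less and Epcam at 0. One library of each treatment stood apart from its group. In a chi-square comparison of counts per gene, adherent PBS replicate 3 differed from its fellows by 19.1 and 19.0, against 7.23 between those fellows, and ULA IFN-gamma replicate 2 differed by 19.99 and 25.3, against 7.48. Every other pair of replicates in the series lay between 5.27 and 15.7, and no pair was alike enough to be copies of 1 library. Results that rest on these libraries are given with and without them.

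Ifngr1 (chromosome 10, 19591949 to 19610229, GRCm38) was lower in the Ifngr1-KO line under either treatment. Its level was 14.2, 17.0 and 16.5 CPM in adherent and 13.3, 14.4 and 13.8 CPM in ULA Ifngr1-KO cells with IFN-gamma, against 14.8, 16.7 and 15.4 CPM and 14.4, 14.2 and 15.5 CPM with PBS. All 12 values lay below the sgNTC libraries, which ran from 31.7 to 48.1 CPM. Reads over an edited gene are still counted, so the level checks the label and not the protein. A change of Ifngr1 with IFN-gamma was not detectable in Ifngr1-KO cells (log2 fold change -0.04, 95% interval -0.19 to 0.11). Of 15 tested genes of the receptor and JAK-STAT pathway, 0 were called and 0 lay under an unadjusted p of 0.05; Ifngr2 stood at -0.01.

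No gene was called higher or lower with IFN-gamma in Ifngr1-KO cells. Of 13633 genes tested, 0 reached an adjusted p under 0.05 with edgeR's quasi-likelihood test and Benjamini-Hochberg adjustment (0% called), with culture as a covariate, and the smallest adjusted p was 0.0711. Other tools called 71 genes (DESeq2) and 95 genes (limma voom with library weights). At an unadjusted p under 0.05 there were 1457 genes, 10.7% of those tested, of which 839 were higher (6.15%) and 618 lower (4.53%). Most values were small: the median absolute log2 fold change was 0.07 and its median standard error 0.07. For 10333 genes, 75.8% of those tested, the 95% interval lay within 0.5 log2 units of 0. Within a culture the same fit called 0 genes in adherent cells (946 at an unadjusted p under 0.05) and 0 in ULA cells (895). In sgNTC cells the same model called 274 of 14126 genes higher (1.94%) and 161 lower (1.14%), and 53 of the raised genes changed by more than 2-fold.

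None of the canonical IFN-gamma targets was called in Ifngr1-KO cells, and the intervals of the abundant ones lay close to 0. Irf1 (interferon regulatory factor 1, chromosome 11, 53770014 to 53778374) is an early target of the pathway. It had 41.8, 43.9 and 43.8 CPM in adherent and 55.0, 56.9 and 55.0 CPM in ULA Ifngr1-KO cells with IFN-gamma, against 41.2, 41.4 and 38.9 CPM and 54.2, 53.7 and 59.8 CPM with PBS. In adherent cells the IFN-gamma values were all above the PBS values by a small margin, and in ULA cells they overlapped. The pooled log2 fold change was 0.04 ± 0.05 (SE, 6 against 6 libraries; interval -0.06 to 0.13), so that the upper bound is 1.09-fold, against a 2.07-fold rise in sgNTC cells (log2 1.05 ± 0.16, adjusted p = 0.00753).

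Ifi47, an immunity-related GTPase, had 0.958, 0.920 and 1.66 CPM in adherent and 8.16, 9.02 and 7.42 CPM in ULA Ifngr1-KO cells with IFN-gamma, against 0.992, 1.14 and 0.873 CPM and 9.60, 8.76 and 10.2 CPM with PBS. The treatments overlapped in both cultures. Its log2 fold change was -0.07 ± 0.14 in Ifngr1-KO cells, with an upper bound of 1.16-fold, against a 4.51-fold rise in sgNTC cells (adjusted p = 0.000594). Gbp2, a guanylate-binding GTPase, had 2.01, 2.38 and 2.13 CPM in adherent and 14.1, 18.9 and 15.99 CPM in ULA Ifngr1-KO cells with IFN-gamma, against 2.22, 2.32 and 1.98 CPM and 18.3, 15.2 and 16.7 CPM with PBS. Its ULA values were the higher ones under either treatment, and the treatments overlapped in both cultures. The pooled log2 fold change was -0.02 ± 0.10, with an upper bound of 1.13-fold, against a 5.47-fold rise in sgNTC cells (adjusted p = 0.00145).

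Of 17 tested genes of MHC class I presentation 0 were called, and 2 lay under an unadjusted p of 0.05, with a median log2 fold change of 0.03. Psmb10, an immunoproteasome subunit, had 12.5, 14.1 and 11.9 CPM in adherent and 28.8, 26.2 and 33.5 CPM in ULA Ifngr1-KO cells with IFN-gamma, against 11.3, 11.01 and 13.1 CPM and 27.8, 33.0 and 30.6 CPM with PBS. B2m, which encodes beta-2 microglobulin, had 126.9, 117.3 and 142.6 CPM and 179.2, 198.3 and 189.1 CPM with IFN-gamma, against 148.6, 131.2 and 134.0 CPM and 184.3, 193.4 and 174.5 CPM with PBS. The treatments overlapped for both genes in both cultures. Psmb10 gave a log2 fold change of 0.03 (interval -0.13 to 0.18) and B2m one of -0.04 (interval -0.14 to 0.07), whereas sgNTC cells raised them by 0.98 and 0.85. Irgm1, an immunity-related GTPase, gave 0.04 (interval -0.08 to 0.15) in Ifngr1-KO cells, against 1.47 in sgNTC cells.

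**Figure D1:**
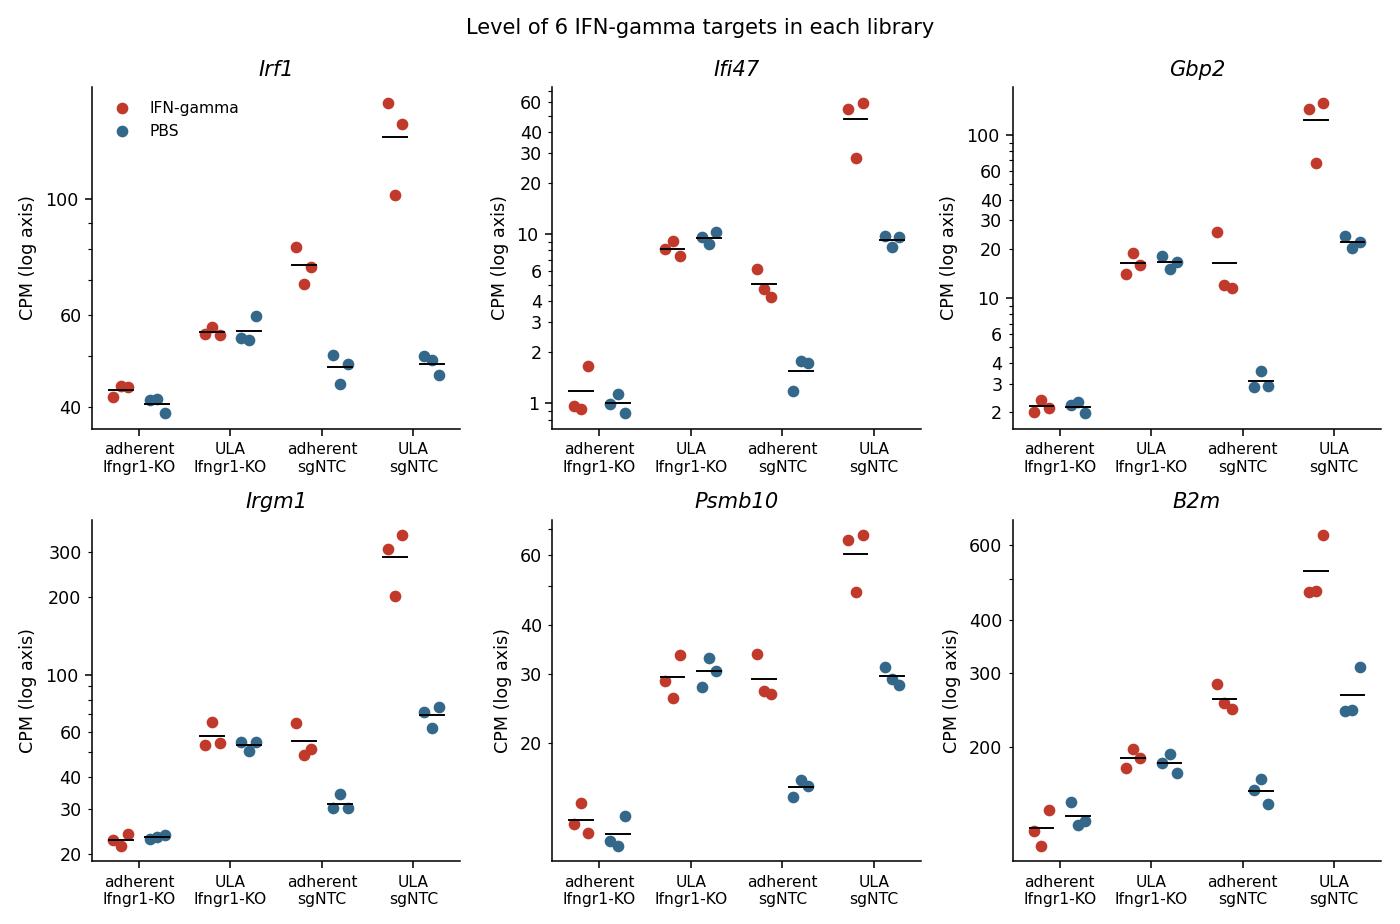
Level of Irf1, Ifi47, Gbp2, Irgm1, Psmb10 and B2m in CPM (log axis) in each library; red points are IFN-gamma, blue points PBS, and bars are the means of 3 libraries. In the Ifngr1-KO columns the points of both treatments overlap or lie close together, for example 7.42 to 9.02 CPM with IFN-gamma and 8.76 to 10.2 CPM with PBS for Ifi47 in ULA, whereas the sgNTC columns separate.

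Over the list of 30 canonical targets, 21 had enough counts to be tested in Ifngr1-KO cells. Of these 0 were called and 0 lay under an unadjusted p of 0.05, against 10.7% of all genes. Their median log2 fold change was 0.04, with 13 above and 8 below 0, beside 0.00 for all genes tested. In sgNTC cells 24 of 28 tested targets rose, beside 1.94% of all genes, with a median of 2.09. Among the 21, the upper bound in Ifngr1-KO cells lay below the sgNTC estimate for 19; the others were Socs1, a feedback inhibitor, and Cxcl10, a chemokine, which were not called in sgNTC cells either. The loss of response was itself called for 20 of 28 targets when the lines were compared in 1 fit, in which 1.92% of all genes were lower. The extremes in Ifngr1-KO cells were -0.26 (Gbp3) and 0.41 (Tgtp2), at low counts.

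The remaining 9 targets were too low to test in Ifngr1-KO cells. Summed over the 9 genes, Ifngr1-KO cells had 79 counts in the 6 libraries with IFN-gamma and 100 in the 6 with PBS, and sgNTC cells had 16191 counts with IFN-gamma and 1650 with PBS. Iigp1, an immunity-related GTPase, had 8 counts in all in Ifngr1-KO cells with IFN-gamma and 12 with PBS, against 9886 and 122 in sgNTC cells. Psmb9, an immunoproteasome subunit, had 10 with IFN-gamma and 36 with PBS in Ifngr1-KO cells. Ciita, the MHC class II transactivator, had 19 with IFN-gamma and 23 with PBS. None of the 9 had over 30 counts in the Ifngr1-KO libraries of a treatment, with the exception of Psmb9 with PBS.

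**Figure D2:**
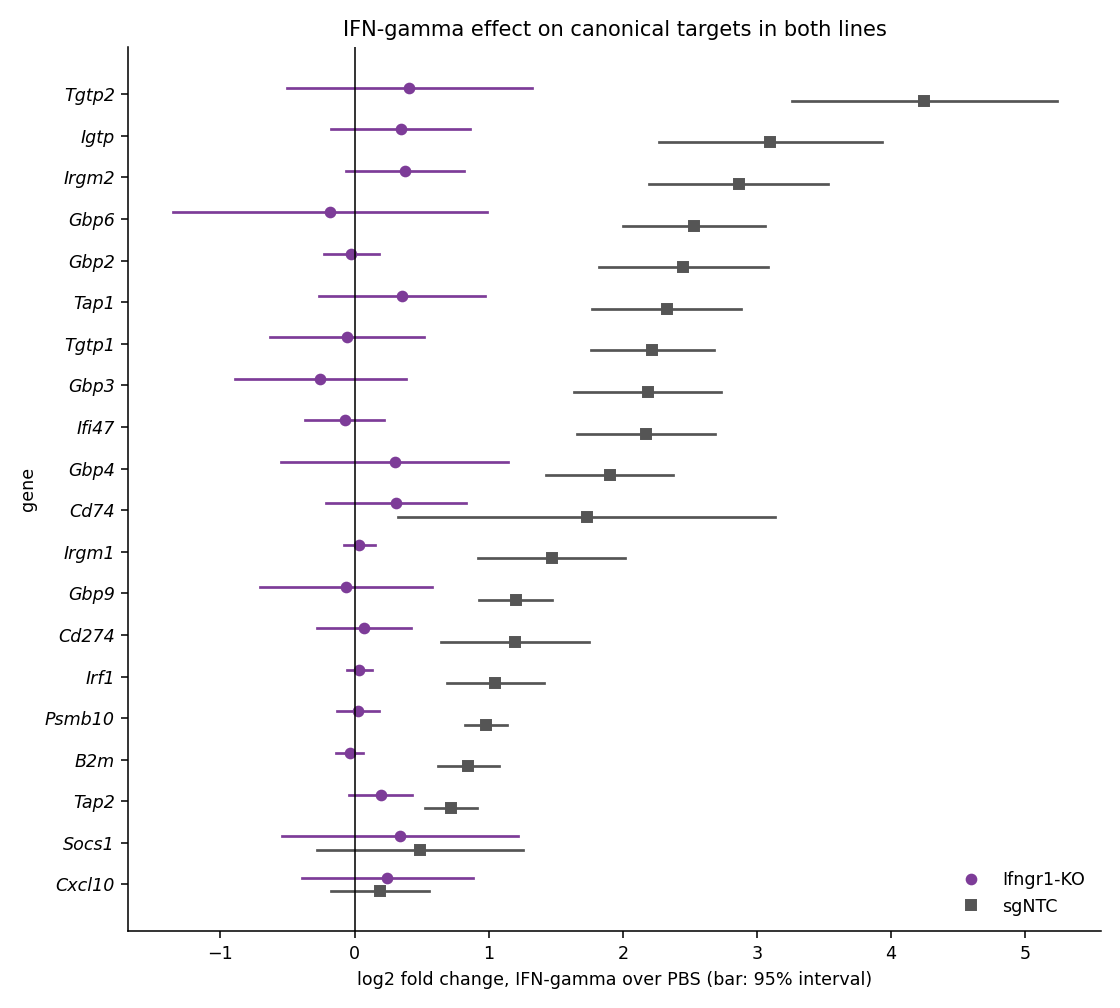
Log2 fold change, IFN-gamma over PBS, with its 95% interval, of 20 canonical targets in Ifngr1-KO cells (above) and sgNTC cells (below) in each pair. Ifngr1-KO values lie between -0.26 and 0.41 around the line at 0, and the sgNTC values reach 4.25 for Tgtp2.

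Some low targets had wide intervals, and for these a small response would not have been detectable at this depth. Irgm2 had 0.958, 0.619 and 1.18 CPM in adherent and 5.13, 6.53 and 5.43 CPM in ULA Ifngr1-KO cells with IFN-gamma, against 0.574, 0.273 and 0.462 CPM and 6.13, 3.73 and 6.72 CPM with PBS. The adherent IFN-gamma values were all above the PBS values, at 1.18 CPM or less, and the ULA values overlapped. Its pooled log2 fold change was 0.38 (interval -0.07 to 0.82, adjusted p = 0.555), and it was not called. Tap1, the peptide transporter, gave 0.35 (interval -0.26 to 0.97) and Igtp, another immunity-related GTPase, 0.34 (interval -0.18 to 0.86), against rises of 2.33 and 3.10 in sgNTC cells. Igtp and Irgm2 overlap on the same strand of chromosome 11, so the counts of both are uncertain.

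Promoters of canonical targets are shown beside those of the genes with the smallest p in each direction in Ifngr1-KO cells, to show the elements that the pathway uses beside the promoters of genes that were not called. The sequences are RefSeq promoters (GRCm38.p6), read in the direction of the gene and trimmed to end at or near its start. Irf1 and Prrg1 have 2 promoter windows each, and for every gene the window with the most GAS matches was shown. Capitals mark a match to GAS (TTCNNNGAA) in Irf1 and Scaf1, and to ISRE (GAAANNGAAA, here on the other strand) in Gbp2; both strands were searched. The regions are chr11:53769894-53770013 (plus strand) for Irf1, chr3:142620543-142620662 (plus) for Gbp2, chr17:34187436-34187555 (plus) for Tap1, chr7:45016248-45016369 (minus) for Scaf1 and chrX:78583806-78583925 (minus) for Prrg1.
Irf1: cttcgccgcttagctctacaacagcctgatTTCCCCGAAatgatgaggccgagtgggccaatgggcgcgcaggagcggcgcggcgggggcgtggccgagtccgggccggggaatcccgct
Gbp2: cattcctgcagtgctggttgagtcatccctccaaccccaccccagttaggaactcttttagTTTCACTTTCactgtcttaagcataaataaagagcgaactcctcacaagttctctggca
Tap1: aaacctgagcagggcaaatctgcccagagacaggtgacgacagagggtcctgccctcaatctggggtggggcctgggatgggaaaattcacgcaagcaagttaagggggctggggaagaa
Scaf1: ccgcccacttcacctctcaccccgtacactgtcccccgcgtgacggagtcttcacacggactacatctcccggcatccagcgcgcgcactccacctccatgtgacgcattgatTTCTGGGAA
Prrg1: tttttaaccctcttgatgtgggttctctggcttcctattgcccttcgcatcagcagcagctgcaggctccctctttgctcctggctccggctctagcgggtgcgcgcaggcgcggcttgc

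The GAS match of Irf1 began 90 bases before the start and the ISRE match of Gbp2 59 bases before it. That of Scaf1 began 7 bases before the start and ran past it, and Tap1 and Prrg1 held neither motif in the window. A GAS match was present in 8.30% of 32851 promoter windows of 300 bases and an ISRE match in 3.44%. Among genes that rose in sgNTC cells and have a window, 13.6% held GAS and 23.8% held ISRE, beside 8.28% and 3.79% of all genes tested there. Among genes higher in Ifngr1-KO cells at an unadjusted p under 0.05 the shares were 7.69% and 2.26%, and among those lower 9.73% and 5.29%, beside 8.31% and 3.64% of all genes tested. A match is a description of letters and not a bound site.

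No member of the wider interferon lists was called. The 5 lists (canonical targets, inducible GTPases, MHC class I, MHC class II and the type I interferon signature) held 93 genes, of which 70 were tested in Ifngr1-KO cells. There 3 were higher and 0 lower at an unadjusted p under 0.05, which is 4.29% beside 10.7% of all genes, and the smallest adjusted p was 0.295. In sgNTC cells 59 of 81 tested members rose and 0 fell, beside 1.94% and 1.14% of all genes. Their median log2 fold change was 0.98 there, beside 0.02 in Ifngr1-KO cells. The 3 were H2-D1, Tapbp and Ifit3, and they are named after their values were seen.

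Ifit3, an interferon-induced antiviral protein, was at 0 in the 6 adherent libraries. In ULA Ifngr1-KO cells it had 0.406, 0.944 and 0.357 CPM with IFN-gamma, against 0.156, 0.102 and 0.102 CPM with PBS. The ULA groups did not overlap, but the values are below 1 CPM and the highest came from replicate 2, the library that stood apart; the log2 fold change was 2.14 ± 0.76 (adjusted p = 0.295). H2-D1, an MHC class I heavy chain, had 119, 130 and 110.7 CPM in adherent and 175.6, 150.8 and 180.4 CPM in ULA cells with IFN-gamma, against 99.5, 112.6 and 122.3 CPM and 146.7, 152.3 and 157.5 CPM with PBS. The treatments overlapped in both cultures, and the log2 fold change was 0.12 ± 0.05 (adjusted p = 0.407), beside 0.39 in sgNTC cells. Tapbp, which loads peptide on MHC class I, gave 0.11 ± 0.04 (adjusted p = 0.337), beside 0.39 in sgNTC cells.

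Genes chosen by the response of sgNTC cells, which share no library with the comparison in Ifngr1-KO cells, were not called in Ifngr1-KO cells. Of the 274 genes that rose in sgNTC cells, 254 were tested in Ifngr1-KO cells, where their median log2 fold change was -0.06 and 82 (32.3%) were above 0, beside 51.3% of all genes tested. At an unadjusted p under 0.05, 7 were higher and 54 lower in Ifngr1-KO cells, beside 6.15% and 4.53% of all genes tested, and the interval excluded the sgNTC estimate for 232. Among those raised over 2-fold in sgNTC cells, 38 of 53 were tested in Ifngr1-KO cells. Their median was 1.45 in sgNTC cells and 0.02 in Ifngr1-KO cells, with 20 of 38 above 0. The 161 genes that fell in sgNTC cells had a median of 0.06 in Ifngr1-KO cells, with 42 higher and 1 lower at an unadjusted p under 0.05. The strong sgNTC responders were thus centred on 0 in Ifngr1-KO cells, and the medians of the full raised and lowered groups had the opposite sign to that in sgNTC cells. With a correction for GC content, chosen after seeing the data, those medians became -0.03, 0.00 and 0.01. The counts at that p became 3 higher and 34 lower for the raised genes, and 16 higher and 3 lower for the lowered genes. Over all 13633 genes they were 369 higher and 371 lower, so an excess in the opposite direction remained in both groups.

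**Figure D3:**
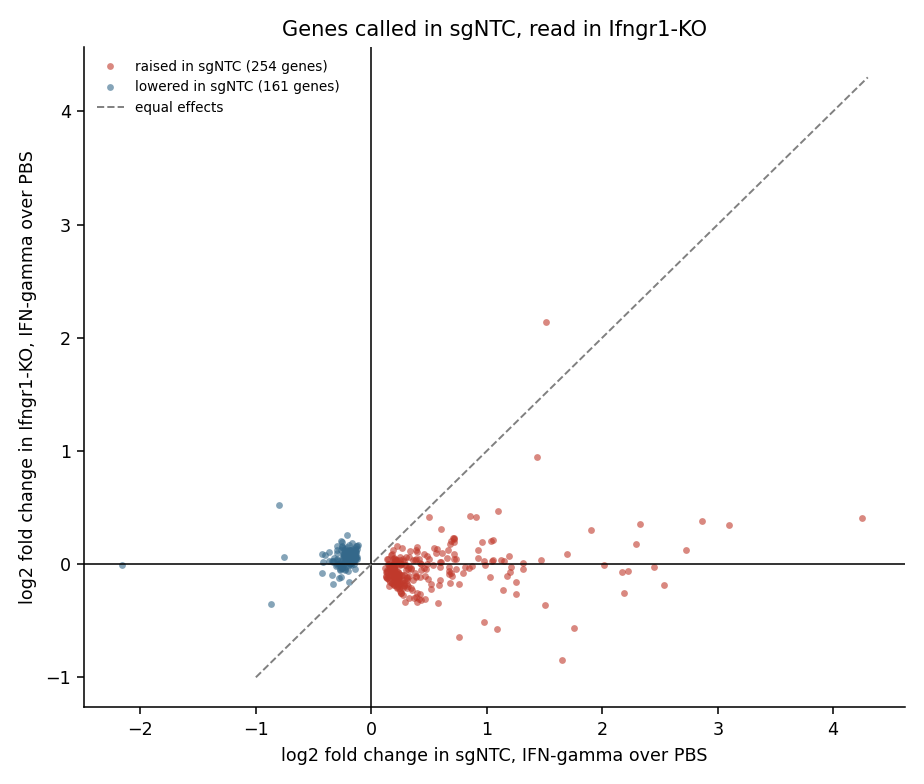
Log2 fold change in Ifngr1-KO cells (y axis) against that in sgNTC cells (x axis), IFN-gamma over PBS, for the 254 raised and 161 lowered sgNTC genes that were tested in Ifngr1-KO cells. Most points lie along the horizontal line at 0 and not along the dashed line of equal effects, and the 38 raised over 2-fold in sgNTC cells have a median of 0.02 on the y axis; the highest point, Ifit3 at 2.14, rests on under 1 CPM.

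The genes with the smallest p in Ifngr1-KO cells were not interferon targets, and none was called. Scaf1, which encodes an SR-related protein that binds the C-terminal domain of RNA polymerase II (chromosome 7, 45002948 to 45016363), had 90.4, 88.5 and 90.3 CPM in adherent and 106.8, 104.4 and 102.0 CPM in ULA Ifngr1-KO cells with IFN-gamma, against 70.0, 72.4 and 72.1 CPM and 93.0, 91.9 and 99.8 CPM with PBS. Prrg1, a transmembrane protein with a Gla domain (chromosome X, 78449613 to 78583896), had 42.3, 36.7 and 39.5 CPM and 69.7, 72.2 and 69.0 CPM with IFN-gamma, against 47.3, 44.3 and 46.7 CPM and 88.1, 83.1 and 81.2 CPM with PBS. Neither gene overlapped between treatments in either culture. The log2 fold change was 0.23 ± 0.04 for Scaf1 (1.17-fold) and -0.25 ± 0.04 for Prrg1 (0.842-fold), each with an adjusted p of 0.0711. Transcript GC content was 63% for Scaf1 and 33.4% for Prrg1. In edgeR with the GC correction the values were 0.13 and -0.16, each with an adjusted p of 0.851.

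By the same rule, the next on the higher side were Foxp4, a forkhead transcription factor (0.24), Plxnd1, a semaphorin receptor (0.24), Prrc2a, an RNA-binding protein (0.19), and Myh9, the heavy chain of non-muscle myosin IIA (0.17). On the lower side they were Msi2, an RNA-binding translational regulator (-0.20), Alg6, a glucosyltransferase of N-glycan assembly (-0.26), Ttc14, a tetratricopeptide protein (-0.20), and Tmx3, a thioredoxin-related disulphide isomerase of the endoplasmic reticulum (-0.18). Adjusted p-values ran up to 0.145. With the GC correction the higher genes stood at 0.13 (Foxp4), 0.16 (Plxnd1), 0.10 (Prrc2a) and 0.11 (Myh9). The lower genes then stood at -0.15 (Msi2), -0.20 (Alg6), -0.13 (Ttc14) and -0.11 (Tmx3), and edgeR called none of them. All 10 genes had treatments that did not overlap in either culture, which is a description, since they were chosen for their small p. In sgNTC cells Scaf1, Plxnd1 and Prrc2a stood at -0.11, -0.08 and -0.08, not called, whereas Myh9 fell (-0.12, adjusted p = 0.0383) and Msi2 rose (0.16, adjusted p = 0.0409). Neither was called in sgNTC cells with the GC correction, at -0.07 (adjusted p = 0.423) for Myh9 and 0.11 (adjusted p = 0.137) for Msi2.

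**Figure D4:**
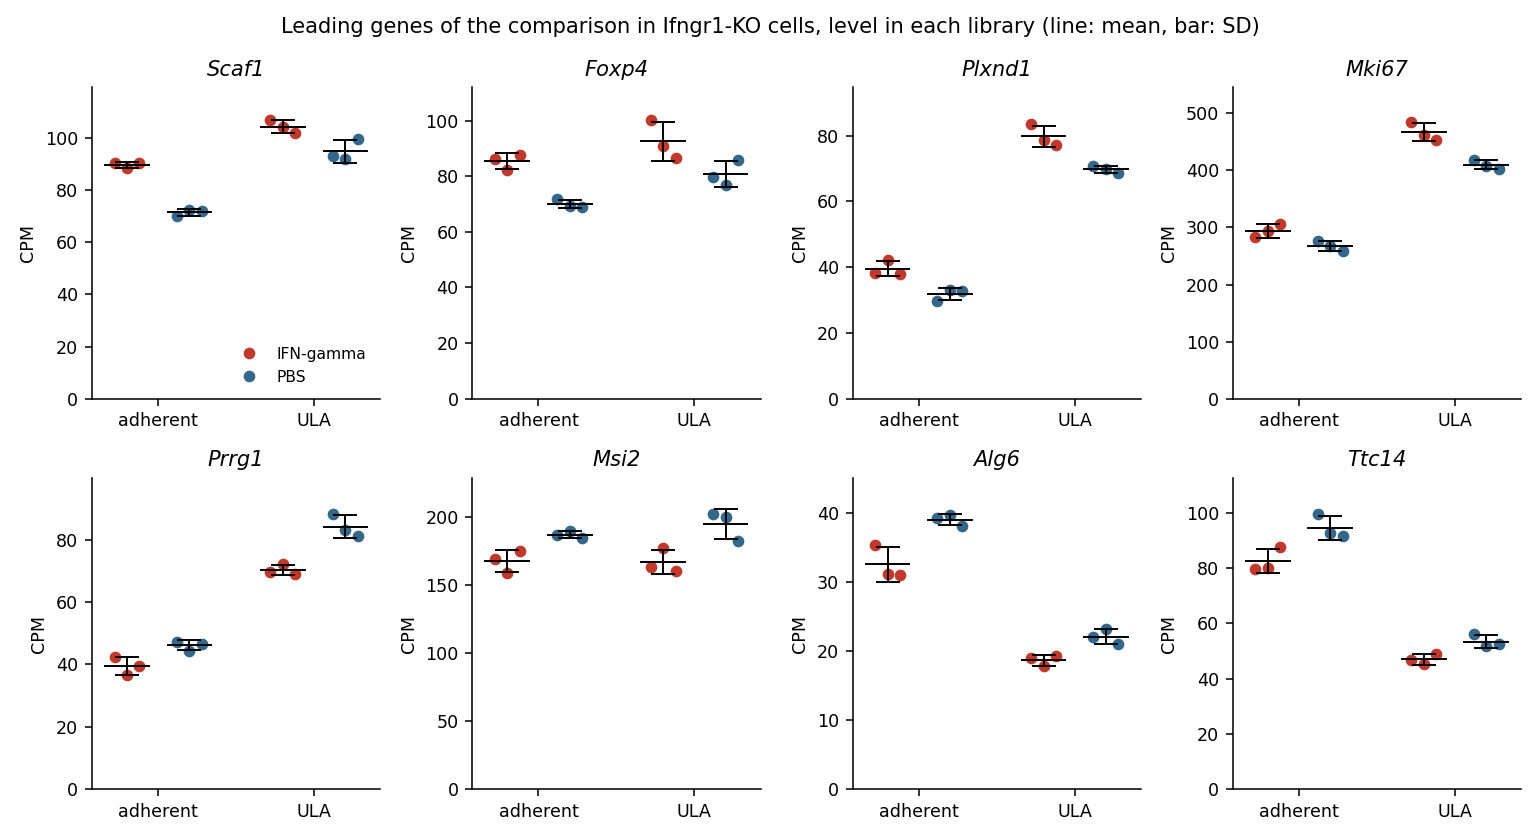
Level in CPM (from 0) in each Ifngr1-KO library of 7 genes with small p-values and of Mki67, which was added after its values were seen; red points are IFN-gamma, blue points PBS, lines are means and bars SD of 3 libraries. Scaf1 lies at 88.5 to 90.4 CPM in adherent cells with IFN-gamma and at 70.0 to 72.4 CPM with PBS, while none of the genes was called.

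Gene lists outside the interferon system had no called member either, and their members at an unadjusted p under 0.05 are given beside the 6.15% higher and 4.53% lower of all genes. In the list of targets of serum response factor and of the actin cytoskeleton, 10 of 19 tested genes were higher and 0 lower, with a median log2 fold change of 0.10. They include Zyx, a focal adhesion protein (0.14), Flna, an actin crosslinker (0.09), Actn1, alpha-actinin (0.10), Tln1, the integrin activator talin (0.11), Rhob, a small GTPase (0.17), and Srf itself (0.14). Zyx had 150.6, 160.7 and 152.6 CPM in adherent and 151.9, 159.7 and 143.9 CPM in ULA Ifngr1-KO cells with IFN-gamma, against 127.6, 130.5 and 137.6 CPM and 141.6, 142.3 and 149.7 CPM with PBS. Its adherent groups did not overlap and its ULA groups did. With the GC correction 5 of the 19 were under that p, with a median of 0.05.

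In the mitosis list 4 of 24 genes were higher and 0 lower. Mki67, a marker of cycling cells, had 283.0, 293.2 and 306.4 CPM in adherent and 484.8, 462.7 and 453.4 CPM in ULA Ifngr1-KO cells with IFN-gamma, against 275.9, 267.4 and 258.1 CPM and 418.6, 408.3 and 402.6 CPM with PBS. The treatments did not overlap in either culture, and the log2 fold change of 0.16 ± 0.04 was not called (adjusted p = 0.139). The others were Aurkb, a kinase of chromosome segregation (0.14), Cdc20, an activator of the anaphase-promoting complex (0.15), and Foxm1, a factor for mitotic genes (0.12). After the GC correction 4 of the 24 were under that p, Mki67 and Aurkb among them, but not Cdc20 and Foxm1. Of 30 DNA replication genes 6 were higher and 1 lower, among them Mcm2 of the replicative helicase (0.11), against 4 and 0 with the GC correction. Of 21 genes of the integrated stress response 6 were higher and 2 lower, against 0 and 0 with the GC correction.

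Splicing and transcription genes were split, with 4 of 32 higher and 7 lower, against 1 and 3 with the GC correction. Of 13 mitochondrially encoded genes 0 were higher and 3 lower, against 0 and 0 with the GC correction. Over all 13633 genes the GC correction left 369 higher and 371 lower at that p, in place of 839 and 618. Of 25 hypoxia and glycolysis genes 0 lay under that p. In sgNTC cells 11 of these fell, beside 1.14% of all genes, and 7 with the GC correction. Of 27 targets of NF-kB and endotoxin, which are induced through other receptors, 2 were higher and 3 lower, with a median of -0.01. Icam1, an adhesion molecule, was at 0.19 (adjusted p = 0.32) and Tlr4, the endotoxin receptor, at -0.11 (adjusted p = 0.398). Of 8 chemokine genes 0 lay under that p. Of 9 interferon receptor and ligand genes of the other types 0 did. Macrophage markers summed to 6.05 to 28.6 CPM with IFN-gamma and 6.89 to 27.6 CPM with PBS, and lymphocyte markers to at most 2.23 CPM with IFN-gamma and 1.41 CPM with PBS. Endothelial markers summed to 30.9 to 87.6 CPM with IFN-gamma and 26.0 to 82.4 CPM with PBS, fibroblast and pericyte markers to 16.2 to 97.5 CPM and 18.0 to 100 CPM, and erythroid markers to less than 1 CPM. Single genes held most of the macrophage, endothelial and fibroblast sums. Cd68 ran from 5.03 to 23.4 CPM, Vwf from 24.7 to 83.8 CPM and Dcn from 15.2 to 98.1 CPM. Other markers of these lists, Adgre1, Kdr, Emcn, Cldn5, Lum and Thy1 among them, were at 0. Of the tested markers of these cell types 1 lay under that p, Mrc1, a macrophage mannose receptor, at -0.58 (adjusted p = 0.327).

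GC content of the transcript went with the small differences. Genes higher in Ifngr1-KO cells with IFN-gamma at an unadjusted p under 0.05 had a median GC content of 56.1%, those lower 42.5% and the rest 49.4%. In sgNTC cells the order was turned round, with 44.9% for higher and 54.8% for lower genes. Over 10 classes of genes by GC content, the median log2 fold change in Ifngr1-KO cells ran from -0.07 in the poorest to 0.08 in the richest class, and in sgNTC cells from 0.06 to -0.07.

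The difference between GC-rich and GC-poor genes, per library and relative to the mean of its line and culture, had a lowest value of -0.03, a median of 0.08 and a highest of 0.13 log2 units in the 6 Ifngr1-KO libraries with IFN-gamma, against -0.14, -0.06 and -0.02 in the 6 with PBS. Within each culture these did not overlap. In ULA the margin was narrow, with -0.03 in IFN-gamma replicate 2, which stood apart, and -0.035 in PBS replicate 3. In an exact two-sided permutation test within cultures, chosen after seeing the data, the difference of 0.14 gave p = 0.005, the smallest that its 400 arrangements allow (adjusted over 2 lines, 0.01), and the sgNTC difference of -0.14 gave p = 0.015. The separation seen beforehand in Ifngr1-KO cells fixes their p at its lowest value, so that p adds nothing to the separation. Fitted with a GC correction, edgeR called 0 genes in Ifngr1-KO cells, and 740 lay at an unadjusted p under 0.05 in place of 1457. What set the GC relation was not tested.

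**Figure D5:**
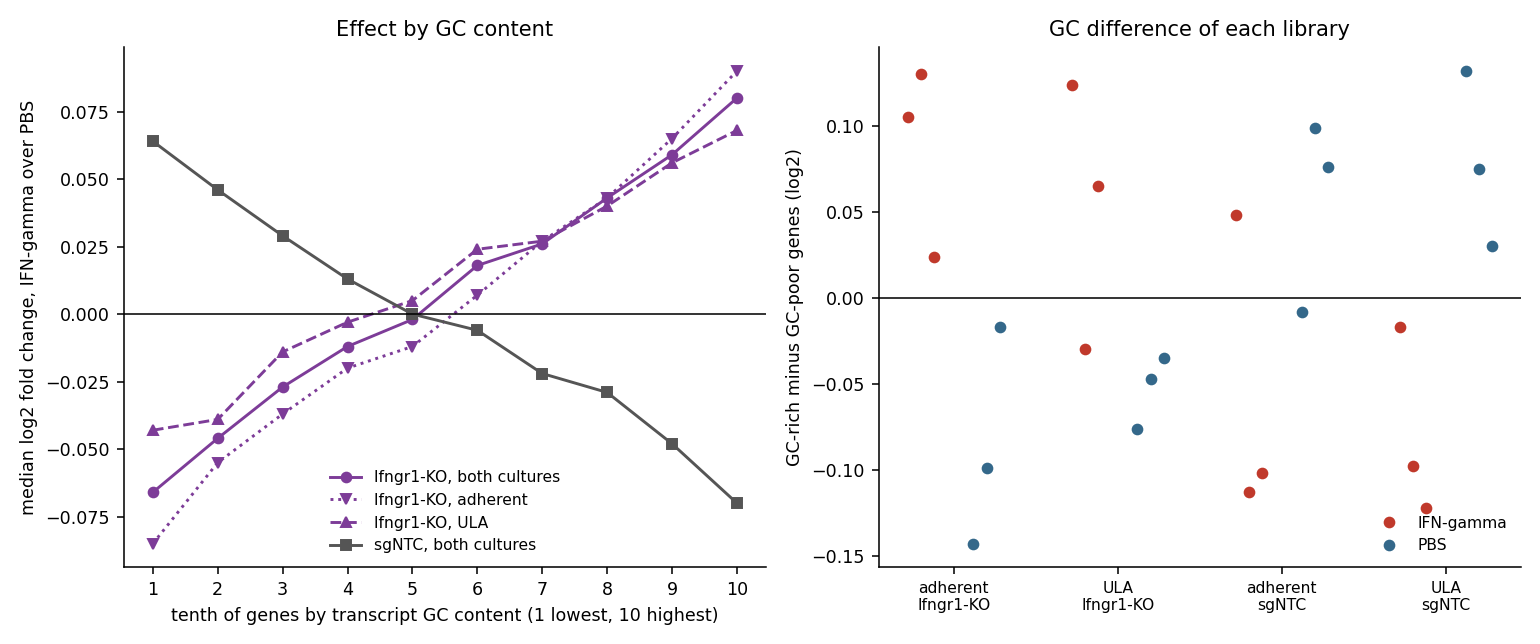
Left, median log2 fold change, IFN-gamma over PBS, over 10 classes of transcript GC content in Ifngr1-KO and sgNTC cells; right, GC-rich minus GC-poor genes in each library, in log2 units. Ifngr1-KO medians climb to 0.08 in the richest class while sgNTC medians descend to -0.07.

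Without the libraries that stood apart, 1 of each treatment, edgeR called many small differences in Ifngr1-KO cells. Of 13907 genes tested, 285 rose (2.05%) and 257 fell (1.85%), with a median absolute log2 fold change of 0.17, and 4 exceeded 1.5-fold. These 4 were poorly estimated, with log2 values of 0.66 ± 0.19 for Gm13375, 2.41 ± 0.72 for Rncr4 and -2.92 ± 0.83 for Slc45a1. The last, a gene without a symbol, was at -5.73 with a standard error of 4063. Median GC content was 56.9% of the raised and 41.8% of the lowered genes. The libraries left out had the lowest GC-rich minus GC-poor difference of the 6 with IFN-gamma (-0.03) and the highest of the 6 with PBS (-0.02). Without them the treatments therefore lie further apart in that difference. Ptms, parathymosin, rose by 0.37 ± 0.04 (adjusted p = 3.85e-07), Flot1, a membrane raft protein, by 0.32, and Lmna, the nuclear lamin A/C, by 0.24, while Ccng2, a cyclin G gene, fell by 0.33 and Efna1, an ephrin ligand, by 0.29. The libraries left out were chosen from these same counts, which narrows the spread behind these standard errors and adjusted p-values. With all 12 libraries none of these genes was called, and edgeR put Ptms at 0.28 ± 0.06 (adjusted p = 0.157). Its value was 0.16 with all 12 libraries and the GC correction. With the GC correction 32 genes were called, 18 higher and 14 lower, of which 27 were among the 542; Ptms, Flot1, Lmna, Ccng2, Efna1, Msi2, Mki67 and Sox9 were among these.

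Canonical targets stayed uncalled without those libraries, at 0 of 21. In the wider interferon lists 4 of 71 members rose, beside 2.05% of all genes: Psme2, a proteasome activator subunit (0.27), H2-D1 (0.20), H2-T23, a non-classical MHC class I gene (0.19), and Tapbp (0.14), with adjusted p-values from 0.00734 to 0.0185. Psme2 had 45.3, 48.7 and 41.4 CPM in adherent and 64.8, 43.9 and 77.1 CPM in ULA Ifngr1-KO cells with IFN-gamma, against 33.0, 39.0 and 46.8 CPM and 57.9, 60.5 and 64.3 CPM with PBS. The lone low ULA value and the lone high adherent PBS value are the libraries left out, and with all 12 the log2 fold change was 0.10 ± 0.13 (adjusted p = 0.842). With the GC correction 0 of the 4 were called. In sgNTC cells H2-D1 rose by 0.39, Psme2 by 0.56 and Tapbp by 0.39, and H2-T23 was not called (0.20, adjusted p = 0.304).

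No gene was called for a different effect of IFN-gamma in ULA and adherent Ifngr1-KO cells. The interaction called 0 of 13633 genes (0% called) with edgeR and 0 with DESeq2, and 418 (3.07%) lay at an unadjusted p under 0.05. Without the 2 libraries 8 of 13907 genes (0.0575%) were called, each lower in ULA than in adherent cells relative to PBS. They include the immediate early genes Junb, an AP-1 subunit (-0.62), Ier2 (-0.60) and Dusp5, an ERK phosphatase (-0.56), and Hk2, the first enzyme of glycolysis (-0.37). With all 12 libraries the values were -0.33 for Junb, -0.44 for Ier2, -0.27 for Dusp5 and -0.22 for Hk2, and none was called. The libraries left out were chosen from these same counts. Junb had 66.2, 74.5 and 66.3 CPM in adherent and 152.0, 198.7 and 151.3 CPM in ULA cells with IFN-gamma, against 59.6, 50.4 and 72.9 CPM and 198.8, 176.4 and 184.0 CPM with PBS. The adherent PBS value of 72.9 and the ULA IFN-gamma value of 198.7 belong to the libraries that stood apart. Over the list of 22 immediate early genes, the median interaction value was -0.23 without those libraries, beside 0.00 for all genes. With all 12 libraries 15 of the 22 values were below 0, beside 46.4% of all genes. The median of the list was then -0.09, beside 0.01 for all genes.

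Set against sgNTC cells in 1 fit of all 24 libraries, the effect of IFN-gamma in Ifngr1-KO cells differed for 714 of 14622 genes, 433 with a higher value (2.96%) and 281 with a lower value (1.92%). Among the lower, 160 were genes that rose in sgNTC cells, among them Gbp2 (-2.47), Ifi47 (-2.24) and Irgm1 (-1.42). Among the higher, 111 were genes that fell in sgNTC cells and 322 were not called there, and 4 of all higher values exceeded 2-fold. The same sgNTC libraries enter the sgNTC calls and this difference, so both overlaps are a description. With the GC correction 127 of the 281 lower and 29 of the 433 higher genes were still called. The interferon lists held 43 of their 81 tested members among the lower genes and 0 among the higher.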

How the data were processed

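Raw counts per gene were deposited for each library. The file headers record that the authors ran featureCounts v2.1.1 on paired reads, unstranded, leaving out multi-mapping reads, with each mate counted on its own. Overlapping genes (Igtp with Irgm2, and Ifi47 with Olfr56, among others), antisense genes and close copies (Tgtp1 with Tgtp2) are uncertain for that reason. Trimmomatic, HISAT2 with GRCm38, SAMtools and DESeq2 are named in the submitters' processing notes, without versions. The 24 libraries held 33494774 to 63154942 counts over 31062 features, of which 30934 had a symbol and 9 were transgenes; positions come from GENCODE M21.

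Counts of the 12 Ifngr1-KO libraries were filtered with filterByExpr at a minimum count of 10 and scaled by TMM. They were fitted with edgeR 4.0.16 (robust glmQLFit, glmQLFTest; R 4.3.3) with treatment and culture, and the culture difference with their interaction. The 12 sgNTC libraries were fitted alike, and the difference between lines in 1 fit of all 24. Tests were two-sided, a call is a Benjamini-Hochberg adjusted p under 0.05 over all genes tested, and intervals are 95% intervals of the fit. Alternatives were DESeq2 1.42.0, limma 3.58.1 voom with sample weights, other filters and scalings, counts halved, replicate blocks, libraries left out, and a per-library lowess correction for transcript GC content (span 0.3) that was chosen after seeing the data. The scripts were tested on simulated counts.

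Genes were named by rule: among called genes of at least 5 CPM, the 12 largest changes each way in Ifngr1-KO cells, or, with fewer called, the 5 uncalled genes with the smallest p each way. The rule took 6 and 3 for the culture difference and 8 each way for the difference between lines, and added the 20 raised sgNTC genes with the smallest p, every canonical target, called members of the lists, receptor and JAK-STAT genes, and Scaf1, Rhob, Hip1r, Plec and Myh9. Unadjusted members of lists, genes called without 2 libraries, and Mki67 were named after their values were seen. The comparison, the gene lists and the libraries left out were chosen with earlier results of these data known. The ISRE search was added to the rule's GAS search. Some genes that the rule names are not reported here.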

Additional observations from a re-analysis of the deposited data

Results flagged for a closer look

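The effect of IFN-gamma differed between Ifngr1-KO and sgNTC cells for 714 genes, by a test of the difference itself in edgeR over all 24 libraries. Values are log2 differences between these effects, Ifngr1-KO minus sgNTC, and every gene named here had an adjusted p of 0.05 or less. Genes with low values include Gbp2 at -2.47, Ifi47 at -2.24, the long non-coding RNA gene AW112010 at -1.48, Irgm1 at -1.42, the macrophage-associated Mpeg1 at -1.22, the interferon-inducible Ifi203 at -1.12 and Cd274, the checkpoint ligand PD-L1, at -1.11.

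Large values on the higher side, among called genes of at least 5 CPM, include those of Lor at 0.665, Ppp1r13l at 0.48, Fam207a at 0.477, Tsen34 at 0.474, Ptms at 0.47, Scand1 at 0.463 and Ccdc124 at 0.456. The 5 genes with the smallest p on each side in Ifngr1-KO cells were chosen by values that this difference contains, so their differences are a description. On the higher side they were Scaf1 (0.343), Foxp4 (0.278), Plxnd1 (0.333), Prrc2a (0.275) and Myh9 (0.297). On the lower side they were Prrg1 (-0.276), Msi2 (-0.346), Alg6 (-0.393), Ttc14 (-0.251) and Tmx3 (-0.286). None of these 10 was called in Ifngr1-KO cells alone. Rhob (0.367), Hip1r (0.256) and Plec (0.36), which earlier results of these data named, differed as well.

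With the GC correction Gbp2, Ifi47, AW112010, Irgm1, Mpeg1, Ifi203, Msi2, Alg6 and Rhob were still called. Cd274, Lor, Ppp1r13l, Fam207a, Tsen34, Ptms, Scand1, Ccdc124, Scaf1, Foxp4, Plxnd1, Prrc2a, Myh9, Prrg1, Ttc14, Tmx3, Hip1r and Plec were not.

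The puromycin resistance transgene PuroR differed by 0.415 (adjusted p = 6.58e-05). It stood at 0.16 in Ifngr1-KO cells (adjusted p = 0.157) and fell by 0.25 in sgNTC cells (adjusted p = 0.000981). It was looked at after its values were seen. In edgeR with the GC correction the difference was 0.395 (adjusted p = 8.83e-05). PuroR has no GC value, so that fit does not test whether its difference goes with GC content.

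Over all called genes the correction for GC content left 29 of the 433 higher and 127 of the 281 lower calls.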

How the results depend on the processing

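The count of 0 called genes in Ifngr1-KO cells also came out with a minimum count of 50, halved counts, a fit that was not robust, and edgeR or voom with the GC correction. It became 4 with library totals, 71 with DESeq2, 95 with voom, 101 without a filter, 16 with 8 group means over 24 libraries and 4 with DESeq2 and the GC correction. It became 542 without the libraries that stood apart (ULA IFN-gamma replicate 2 and adherent PBS replicate 3) and 32 with the GC correction in addition. With 1 library left out it ran from 0 to 36 and was 0 in 8 of 12 cases; it was 36 without ULA IFN-gamma replicate 2, 9 without ULA IFN-gamma replicate 3, 2 without ULA PBS replicate 3 and 1 without adherent PBS replicate 3. The 4 calls of DESeq2 with the GC correction were Mki67, Ddx24 and Fgf13 (higher) and Atp5g2 (lower).

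The 21 tested canonical targets gave 0 calls in 563 pairs of gene and alternative, over 27 alternatives. Over the named genes of the Ifngr1-KO comparison, the culture difference and the difference between the lines together, 4605 pairs gave 0 reversed calls, 121 lost and 158 gained calls. A reversal was counted only where a gene was called. In 153 of the pairs the sign changed without a call.

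The culture difference, 0 as reported, gave 9 without a filter, 8 without the libraries that stood apart, 9 with the GC correction in addition, and 0 to 1 with 1 library left out (1 without ULA IFN-gamma replicate 1). The sgNTC count of 435 became 709 with DESeq2, 799 without a filter and 247 to 542 with 1 library left out, the lowest without ULA PBS replicate 2; with the GC correction edgeR called 292, with 229 higher and 63 lower (78.4% higher, against 63% as reported). The difference between the lines, 714 with 60.6% higher, became 186 with the GC correction in edgeR (22% higher), 301 in DESeq2 (26.6%) and 238 in voom (33.6%), 1139 without the libraries that stood apart, 229 with the GC correction in addition (34.5%), and 502 to 854 with 1 library left out; 49.1% were higher with library totals. The causes of these shifts were not tested.

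Same-numbered libraries of the treatments did not deviate together (correlations from -0.06 to 0.04), and the samples were treated as unpaired. Such correlations cannot tell whether the numbers pair the samples by how they were grown or processed. With the replicate number as a block within line and culture, 0 genes were called in Ifngr1-KO cells (smallest adjusted p 0.168), 0 for the culture difference, 385 in sgNTC cells and 649 between the lines. With a block shared by both cultures the counts were 0, 0, 422 and 730.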
